A study of Mus musculus with 6 samples.

Results

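The genes described here act at the outside of the WNT pathway. They are 19 Wnt ligands, 10 Frizzled receptors, the 2 co-receptors Lrp5 and Lrp6, 10 secreted inhibitors of the Sfrp, Dkk, Wif1 and Frzb kind, and 4 genes that modify the signal or report it, Porcn, Rspo3, Lgr4 and Axin2. They were taken from the gene table by name alone, which gave 45 of 20475 genes. A gene was counted as expressed where at least 1 library held 10 or more normalised reads (reads scaled so that libraries of unequal size can be compared). By this rule 22 of the 45 genes were expressed and 23 were not.

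The cells were NIH3T3, an established mouse embryonic fibroblast line, at passage 5 in every group. They were given extracellular vesicles (EVs), small membrane-enclosed particles shed by cells, from 1 of 2 human breast lines. The controls were given only phosphate-buffered saline (PBS), the liquid that carried the EVs. MCF10A is a non-tumorigenic breast epithelial line and MDA-MB-231 is a triple-negative breast cancer line. RNA was taken 48 h later, and there were 2 libraries for PBS, 2 for MCF10A EVs and 2 for MDA-MB-231 EVs. No group carried a genetic change by the labels, and the donors were human lines while the recipient was a mouse line.

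Wnt proteins are secreted lipid-modified ligands. Porcn, an enzyme of the endoplasmic reticulum, attaches the lipid that the ligands need for secretion and receptor binding. A ligand that binds a Frizzled receptor together with Lrp5 or Lrp6 stops the destruction of beta-catenin, which then acts with TCF and LEF factors on target genes such as Axin2, itself a brake on the pathway. Sfrp proteins, Frzb and Wif1 bind the ligands, Dkk1, Dkk2 and Dkk4 bind the co-receptors, and R-spondins such as Rspo3 act through Lgr4 to keep Frizzled receptors at the cell surface. Fibroblasts are a well-known source of Wnt ligands and inhibitors, and some ligands, Wnt5a among them, act largely without beta-catenin.

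The libraries held 22451173 to 29315530 gene reads, and a read was found for 14553 to 14856 genes in each. At this depth a floor of 3 reads lay between 2.54 and 3.26 normalised reads, a limit that covers counting error only. The 2 libraries of each group differed by more than sampling noise, with a chi-square per degree of freedom of 1.63 for PBS, 2.24 for MCF10A EVs and 1.83 for MDA-MB-231 EVs. Where the labels do not say whether replicates were separate cultures, as here, p-values measure only the spread between these samples. Of 15 fibroblast markers 14 were expressed, and their summed level was 559400 to 559600 normalised reads with PBS, 476100 to 490200 after MCF10A EVs and 461000 to 472400 with MDA-MB-231 EVs. Of these markers 10 fell and 1 rose with each kind of EV against PBS in limma's test. That is 71.4% lower, beside 16.9% of all tested genes with MDA-MB-231 EVs and 14.6% with MCF10A EVs. With quantile scaling 7 fell and 6 rose with MDA-MB-231 EVs, and 8 fell and 2 rose with MCF10A EVs. Of 12 epithelial markers 1 was expressed, with summed levels of 50.01 to 51.41, 37.0 to 42.9 and 32.6 to 45.6 normalised reads for PBS, MCF10A EVs and MDA-MB-231 EVs. That 1 marker was called in 0 comparisons by limma and DESeq2, had an unadjusted limma p under 0.05 in 1 comparison, MDA-MB-231 EVs against PBS, and was called there by edgeR. Epcam, Krt18, Krt5 and Esrp1 had 0 reads. Of 8 measured macrophage and leukocyte markers 3 were expressed, and Emr1 and Cd3e had 0 reads. Their summed levels were 3036 to 3142, 1780 to 1833 and 993 to 1059 normalised reads for PBS, MCF10A EVs and MDA-MB-231 EVs. Of the 3, limma called Cd14 and Csf1r lower with MDA-MB-231 EVs (66.7%) and 1 of them with MCF10A EVs (33.3%). Over all tested genes the shares called lower were 16.9% and 14.6%. Of 9 endothelial markers 1 was expressed, Cdh5, and Emcn had 0 reads. The summed levels were 356 to 364, 297 to 345 and 158 to 195 normalised reads in the same order. Cdh5 was called lower with MDA-MB-231 EVs and was not called with MCF10A EVs. The part of these shifts in the results on WNT genes was not tested.

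The repertoire of the PBS-treated cells was dominated by a few receptors and 1 inhibitor. Per kilobase of exon, which allows levels of different genes to be compared, Fzd7 stood at 424 normalised reads and Sfrp1 at 411, and the libraries of these 2 genes overlapped. Fzd2 at 241, Lgr4 at 237, Lrp6 at 222 and Fzd1 at 216 followed. In that run the libraries of Fzd2 overlapped with those of Lgr4 and of Lrp6, and those of Lrp6 with those of Fzd1. Lrp5 stood at 162, Dkk3 at 125, Dkk2 at 65.4, Porcn at 56.8, Fzd5 at 47.7 and Fzd8 at 28.7 normalised reads per kilobase, each apart from its neighbours in the order.

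The ligands came lower in that order. Wnt9a had 20.2, Wnt5a 15.0, Wnt2b 12.9 and Wnt4 2.19 normalised reads per kilobase with PBS. Fzd4 at 15.8 and Rspo3 at 15.3 lay close to Wnt5a, and both overlapped with it. Wnt2b overlapped with Fzd6 at 12. At the bottom were Frzb at 2.90, which overlapped with Wnt4, and Axin2 at 0.832, which overlapped with Fzd3 at 0.633.

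**Figure D1:**
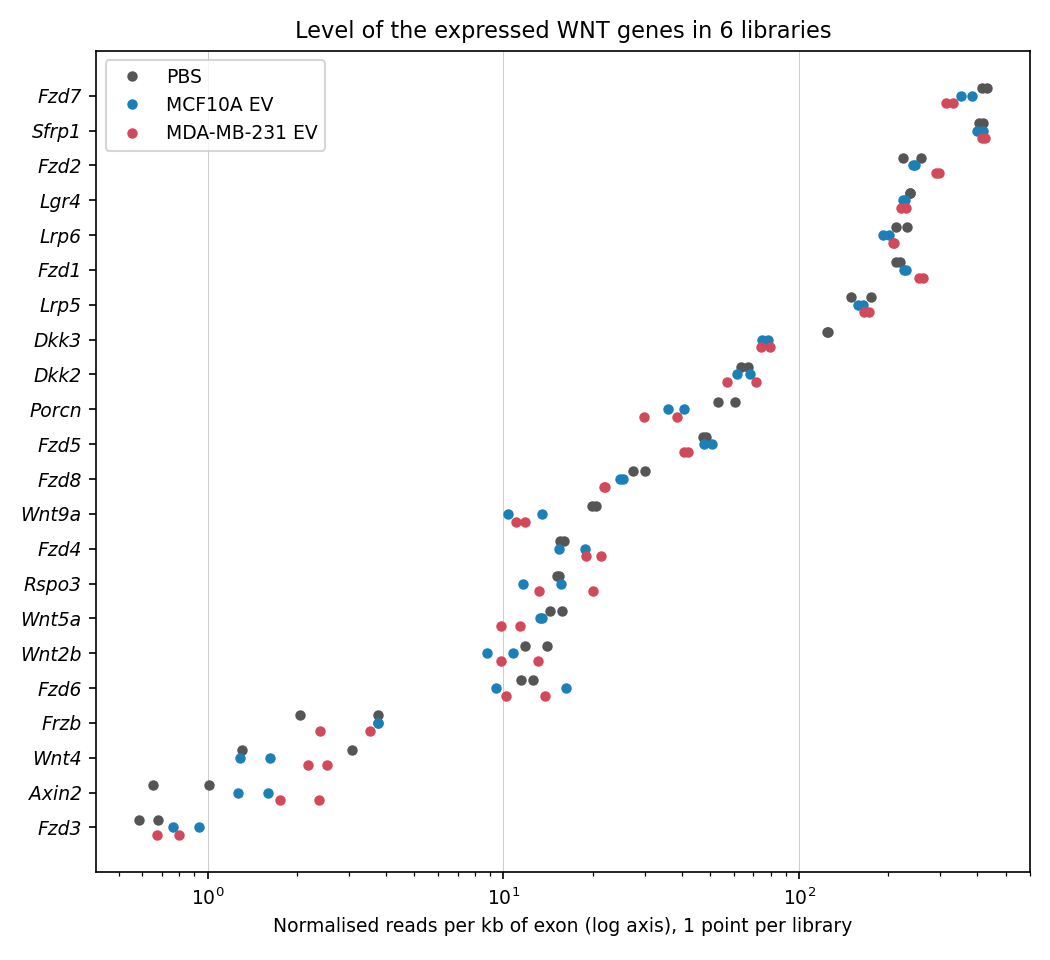
Level of each expressed WNT gene in normalised reads per kilobase of exon on a log axis, 1 point per library, in grey for PBS, blue for MCF10A EVs and red for MDA-MB-231 EVs, ordered by the PBS mean. Fzd7 and Sfrp1 lie at the top, and the Wnt ligands lie in the lower part. Dkk3 and Wnt9a are among the genes whose grey points stand apart from both coloured groups.

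Against PBS, 8 of the 22 expressed genes were called with MDA-MB-231 EVs and 5 with MCF10A EVs, at an adjusted p under 0.05 in a limma fit over 15025 genes. With MDA-MB-231 EVs Fzd1 and Fzd2 rose, and Wnt9a, Wnt5a, Porcn, Fzd7, Fzd8 and Dkk3 fell. With MCF10A EVs Wnt9a, Porcn, Fzd7, Lrp6 and Dkk3 fell. The 8 genes are 36.4% of the expressed WNT genes, where 34.8% of all tested genes were called, 17.9% higher and 16.9% lower. The 5 genes are 22.7%, where 31.7% of all tested genes were called, 17.1% higher and 14.6% lower. In edgeR with library totals 68.0% of all called genes were higher with MDA-MB-231 EVs and 61.0% with MCF10A EVs, beside 51.4% and 54.0% in limma. The shares of WNT genes called are near or under the background, so the number of calls says nothing particular about WNT genes. The tested genes needed only 1 normalised read in 2 libraries, a lower threshold than that of the 22. This holds wherever a share of all tested genes is given. In edgeR with TMM 8 of 20 tested WNT genes were called with MDA-MB-231 EVs, beside 5554 of 12352 genes. With MCF10A EVs 5 of the 20 were called, beside 5160 of the 12352. No expressed WNT gene was called higher with MCF10A EVs by limma, edgeR or DESeq2. In limma 0 were higher at an unadjusted p under 0.05. With quantile scaling 1 was higher at that level and 0 were called. The median log2 change of the 22 genes was -0.02 with MDA-MB-231 EVs and -0.04 with MCF10A EVs, beside 0.01 and 0.00 over all tested genes. The 2 comparisons share the PBS libraries and are not independent of each other.

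The count of 8 became 4 without PBS replicate 1, 5 without PBS replicate 2, and 4 without either MDA-MB-231 EV library. The count of 5 became 1 without PBS replicate 1, 3 without PBS replicate 2, 3 without MCF10A EV replicate 1 and 2 without MCF10A EV replicate 2. With 1 library left in a group, that library is assumed to vary like the others.

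**Figure D2:**
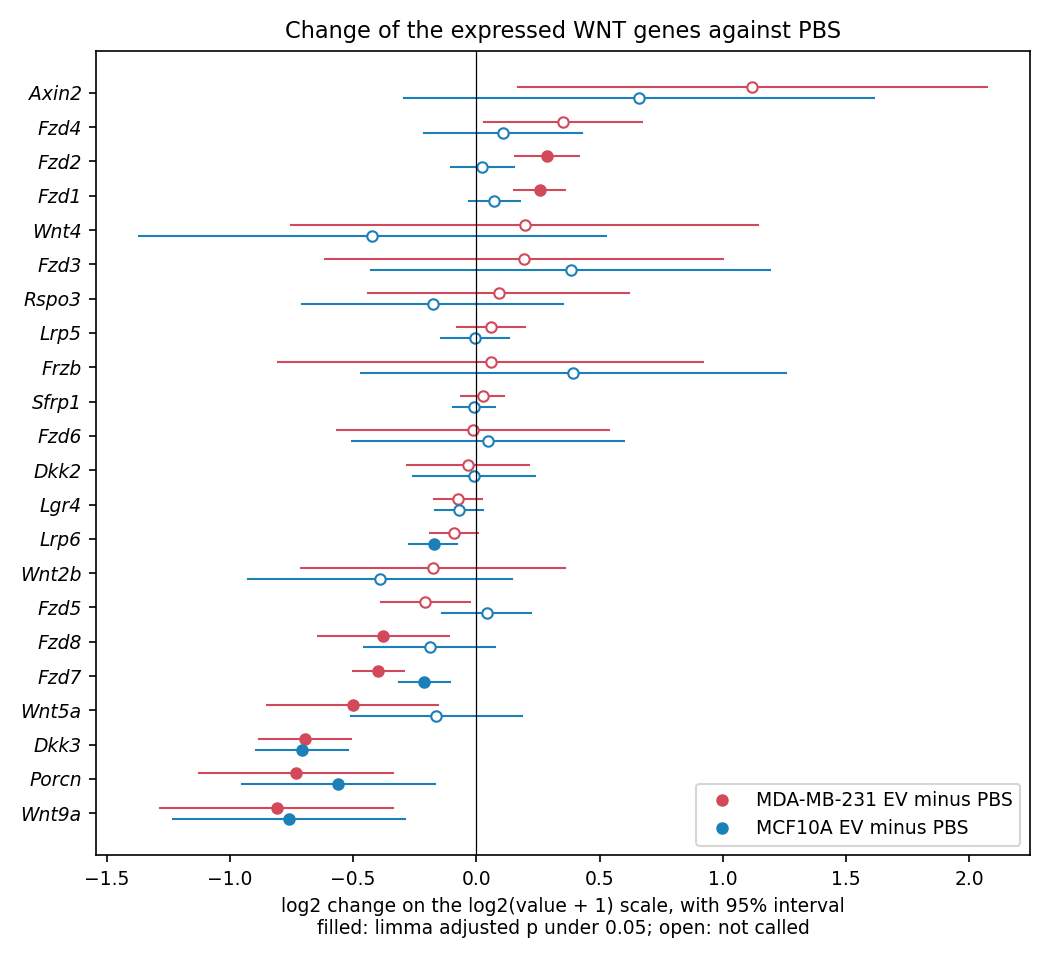
Log2 change of each expressed WNT gene against PBS, on the log2(value + 1) scale, with its 95% interval, in red for MDA-MB-231 EVs and blue for MCF10A EVs. Filled points were called and open points were not. Wnt9a, Porcn, Dkk3 and Fzd7 carry filled points for both EVs on the negative side, and the filled points of Fzd1 and Fzd2 are red and positive.

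Of the ligands, Wnt9a and Wnt5a fell. Wnt9a, on chromosome 11, is a ligand known from joint and blood stem cell formation. It had 68.4 and 66.3 normalised reads with PBS, 44.9 and 34.4 after MCF10A EVs and 36.6 and 39.4 after MDA-MB-231 EVs. Both PBS libraries lay above all 4 EV libraries. The means were 67.3 ± 1.47 (SD, n = 2, as for every mean here), 39.6 ± 7.48 and 38.0 ± 1.99 normalised reads. Wnt9a fell by 0.81 (SE 0.22) on the log2 scale with MDA-MB-231 EVs, 1.75-fold, limma adjusted p = 0.00945. It fell by 0.76 with MCF10A EVs, 1.70-fold, limma adjusted p = 0.0155. In bulk RNA, fewer cells that make a transcript and less transcript per cell cannot be told apart, here and in every result below. The call with MDA-MB-231 EVs was lost without any 1 of its 4 libraries, at log2 changes of -0.86 to -0.76 and adjusted p of 0.0589 to 0.0847, and in DESeq2 (0.0645). The call with MCF10A EVs was lost without PBS replicate 1 (log2 -0.74, adjusted p = 0.106), without PBS replicate 2 (log2 -0.78, 0.0903), without MCF10A EV replicate 2 (log2 -0.57, 0.13) and in DESeq2 (0.0898).

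Wnt5a, on chromosome 14, is the ligand best known for signalling through Ror receptors and planar cell polarity. Its values were 110.6 and 100.8 normalised reads with PBS, 93.5 and 94.96 after MCF10A EVs and 69.1 and 79.8 after MDA-MB-231 EVs. The 3 groups did not overlap, with PBS highest and MDA-MB-231 EVs lowest. From 105.7 ± 6.94 it fell to 74.4 ± 7.54 with MDA-MB-231 EVs, by 0.50 on the log2 scale or 1.42-fold (limma adjusted p = 0.0253). With MCF10A EVs it stood at 94.2 ± 1.02, a log2 difference of -0.16 that was not called (adjusted p = 0.501, 95% interval -0.51 to 0.18). The call with MDA-MB-231 EVs was lost without PBS replicate 1 (log2 -0.44, adjusted p = 0.151), without PBS replicate 2 (log2 -0.57, 0.0704), without MDA-MB-231 EV replicate 1 (log2 -0.40, 0.139) and in DESeq2 (0.136).

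The other 2 expressed ligands were not called. Wnt2b, on chromosome 3, had 46.5 and 39.1 normalised reads with PBS, 29.1 and 35.8 after MCF10A EVs and 32.5 and 43.5 after MDA-MB-231 EVs, so its MDA-MB-231 EV libraries overlapped with PBS. Wnt4, on chromosome 4, had between 5.41 and 12.9 normalised reads in the 6 libraries, and both extremes of the PBS group, 12.9 and 5.49, enclosed the MDA-MB-231 EV values of 9.15 and 10.6. The 95% intervals of the Wnt4 log2 change, -0.75 to 1.14 with MDA-MB-231 EVs and -1.37 to 0.52 with MCF10A EVs, are wide at this depth.

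The ligands share their modifying enzyme. Porcn, on chromosome X, had 114.8 and 100.7 normalised reads with PBS, 77.2 and 68.3 after MCF10A EVs and 73.1 and 56.7 after MDA-MB-231 EVs. Both PBS libraries lay above all 4 EV libraries, while the 2 EV groups overlapped. From 107.8 ± 9.99 Porcn fell to 64.9 ± 11.5 with MDA-MB-231 EVs, by 0.73 on the log2 scale or 1.66-fold (limma adjusted p = 0.00571). It fell to 72.8 ± 6.28 with MCF10A EVs, by 0.56 or 1.47-fold (limma adjusted p = 0.0307). The call with MDA-MB-231 EVs was lost without PBS replicate 1 (log2 -0.64, adjusted p = 0.0921) and without MDA-MB-231 EV replicate 2 (log2 -0.55, 0.0912). The call with MCF10A EVs was lost without any 1 of its 4 libraries, at log2 changes of -0.65 to -0.47 and adjusted p of 0.0795 to 0.215, in DESeq2 (0.107), in limma without a trend (0.0936) and with quantile scaling (0.0583).

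Among the 8 expressed Frizzled receptors, the most abundant fell and the next 2 rose with MDA-MB-231 EVs. Fzd7, on chromosome 1, had 1958 and 1883 normalised reads with PBS, 1732 and 1589.8 after MCF10A EVs and 1496 and 1419 after MDA-MB-231 EVs. The 3 groups stood apart in that order. The means were 1921 ± 53.2, 1661 ± 100 and 1458 ± 54.3. Fzd7 fell by 0.40 (SE 0.05) on the log2 scale with MDA-MB-231 EVs, 1.32-fold (limma adjusted p = 9.8e-06), and this call was kept in all 17 alternative analyses. With MCF10A EVs Fzd7 fell by 0.21, 1.16-fold (limma adjusted p = 0.00341), a call that was lost without PBS replicate 1 (log2 -0.18, adjusted p = 0.0932), without MCF10A EV replicate 2 (log2 -0.15, 0.0836) and in limma without a trend (0.103).

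Fzd1, on chromosome 5, had 922 and 894 normalised reads with PBS, 947 and 961 after MCF10A EVs and 1066 and 1103 after MDA-MB-231 EVs. Both MDA-MB-231 EV libraries lay above all others. Fzd1 rose from 908 ± 19.6 to 1084 ± 26.2 with MDA-MB-231 EVs, by 0.26 on the log2 scale or 1.19-fold (limma adjusted p = 0.000701), a call kept in all 17 alternatives. With MCF10A EVs it stood at 954 ± 10.3, and the log2 difference of 0.07 was not called (adjusted p = 0.301, 95% interval -0.03 to 0.18).

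Fzd2, on chromosome 11, had 942 and 824 normalised reads with PBS, 901 and 889.6 after MCF10A EVs and 1063 and 1086 after MDA-MB-231 EVs. Again both MDA-MB-231 EV libraries lay above all others, while the MCF10A EV libraries lay within the PBS range. Fzd2 rose from 883 ± 83.6 to 1075 ± 15.7 with MDA-MB-231 EVs, by 0.29 on the log2 scale or 1.22-fold (limma adjusted p = 0.00151). With MCF10A EVs the log2 difference was 0.02 (adjusted p = 0.813, 95% interval -0.10 to 0.15). The call with MDA-MB-231 EVs was lost without MDA-MB-231 EV replicate 1 (log2 0.30, adjusted p = 0.0579), without MDA-MB-231 EV replicate 2 (log2 0.27, 0.0762) and in limma without a trend (0.0711).

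Fzd8, on chromosome 18, had 163 and 179.6 normalised reads with PBS, 148 and 152 after MCF10A EVs and 132 and 131 after MDA-MB-231 EVs, so the 3 groups did not overlap. It fell from 171 ± 11.6 to 132 ± 0.662 with MDA-MB-231 EVs, by 0.38 on the log2 scale or 1.30-fold (limma adjusted p = 0.028). That call was lost without any 1 of its 4 libraries, at log2 changes of -0.45 to -0.31 and adjusted p of 0.0555 to 0.162, and in DESeq2 (0.146). With MCF10A EVs the log2 difference was -0.19 (adjusted p = 0.286).

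The other 4 expressed receptors were not called. Fzd5, on chromosome 1, had 334 and 326 normalised reads with PBS, 328 and 352 after MCF10A EVs and 290.5 and 281 after MDA-MB-231 EVs, and the last 2 lay below all others (log2 -0.21, limma adjusted p = 0.0739). Fzd4, on chromosome 7, had 107 and 105 normalised reads with PBS, 126 and 103 after MCF10A EVs and 143 and 128 after MDA-MB-231 EVs, again with the last 2 apart from the rest (log2 0.35, limma adjusted p = 0.0868). Quantile scaling called Fzd5 (adjusted p = 0.0411), and edgeR with library totals called Fzd4 (0.0195). Fzd6, on chromosome 15, ranged from 41.3 to 71.4 normalised reads, with both extremes in the MCF10A EV group. Fzd3, on chromosome 14, ranged from 7.45 to 11.9.

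The Frizzled transcripts differed in make-up between the groups, while their sum with MDA-MB-231 EVs lay within the PBS range. Summed per kilobase of exon, the 8 receptors had 1013 and 959.3 normalised reads with PBS, 961.9 and 924.8 after MCF10A EVs and 970.7 and 968.4 after MDA-MB-231 EVs. Fzd7 made up 42.7% and 43.3% of that sum with PBS, 39.7% and 37.9% after MCF10A EVs and 34.0% and 32.3% after MDA-MB-231 EVs. Fzd2 made up 25.4% and 23.4%, 25.6% and 26.3%, and 29.9% and 30.6% in the same order, and Fzd1 21.7% and 22.2%, 23.5% and 24.8%, and 26.2% and 27.1%. These shares are a description with no test, and they derive from the values above. Each of the other 5 receptors held at most 5.50% in any library.

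**Figure D3:**
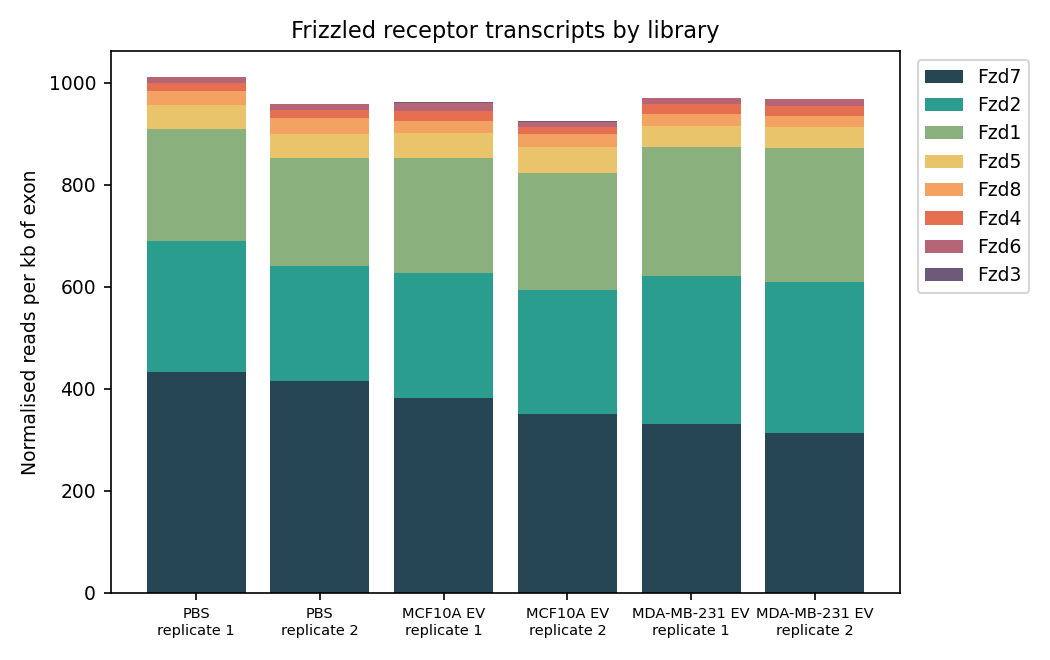
Stacked level of the 8 expressed Frizzled receptors in normalised reads per kilobase of exon, 1 bar per library. The total lies between 924.8 and 1013, the Fzd7 segment shortens from PBS to MCF10A EVs to MDA-MB-231 EVs, and the Fzd2 and Fzd1 segments are longest with MDA-MB-231 EVs.

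Of the 2 co-receptors, Lrp6 fell with MCF10A EVs. Lrp6, on chromosome 6, had 2173 and 1985 normalised reads with PBS, 1796 and 1886 after MCF10A EVs and 1959 and 1941 after MDA-MB-231 EVs, and its 3 groups did not overlap. It fell with MCF10A EVs from 2079 ± 133 to 1841 ± 63.2, by 0.17 on the log2 scale or 1.13-fold (limma adjusted p = 0.0086). With MDA-MB-231 EVs the log2 difference was -0.09 (adjusted p = 0.145, 95% interval -0.19 to 0.01). The call with MCF10A EVs was lost without PBS replicate 1 (log2 -0.11, adjusted p = 0.161), without MCF10A EV replicate 1 (log2 -0.14, 0.13), without either MDA-MB-231 EV library (0.0636 and 0.0637), in a fit of these 2 groups alone (0.0635) and in limma without a trend (0.138). Lrp5, on chromosome 19, had 1048 and 898 normalised reads with PBS, which enclosed all 4 EV libraries at 947 to 1032, and it was not called (adjusted p = 0.523 with MDA-MB-231 EVs and 0.964 with MCF10A EVs).

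Of the 4 expressed secreted inhibitors, Dkk3 fell with both EVs and the other 3 were not called. Dkk3, on chromosome 7, is a divergent Dkk family member that is not a typical Lrp5 or Lrp6 antagonist. It had 421 and 418 normalised reads with PBS, 250.6 and 262 after MCF10A EVs and 268 and 249.6 after MDA-MB-231 EVs. Both PBS libraries lay far above all 4 EV libraries, and the 2 EV groups overlapped. From 419 ± 2.61 Dkk3 fell to 259 ± 13.0 with MDA-MB-231 EVs, by 0.70 (SE 0.09) on the log2 scale or 1.62-fold (limma adjusted p = 1.44e-05). It fell to 256 ± 8.27 with MCF10A EVs, by 0.71 or 1.63-fold (limma adjusted p = 2e-05). Both calls were kept in all 17 alternatives.

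Sfrp1, on chromosome 8, binds Wnt ligands outside the cell and was the most abundant inhibitor. It had 1828 and 1770.0 normalised reads with PBS, 1749.9 and 1823 after MCF10A EVs and 1808 and 1853 after MDA-MB-231 EVs, with all 3 groups overlapping. The 95% interval of its log2 change was -0.06 to 0.11 with MDA-MB-231 EVs and -0.10 to 0.08 with MCF10A EVs. Dkk2, on chromosome 3, had 212 to 264 normalised reads over the 6 libraries, and both extremes came from MDA-MB-231 EVs. Its 95% intervals were -0.28 to 0.21 with MDA-MB-231 EVs and -0.26 to 0.24 with MCF10A EVs. Frzb, on chromosome 2, had 11.8 and 6.45 normalised reads with PBS, 11.8 and 11.9 after MCF10A EVs and 11.2 and 7.52 after MDA-MB-231 EVs.

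**Figure D4:**
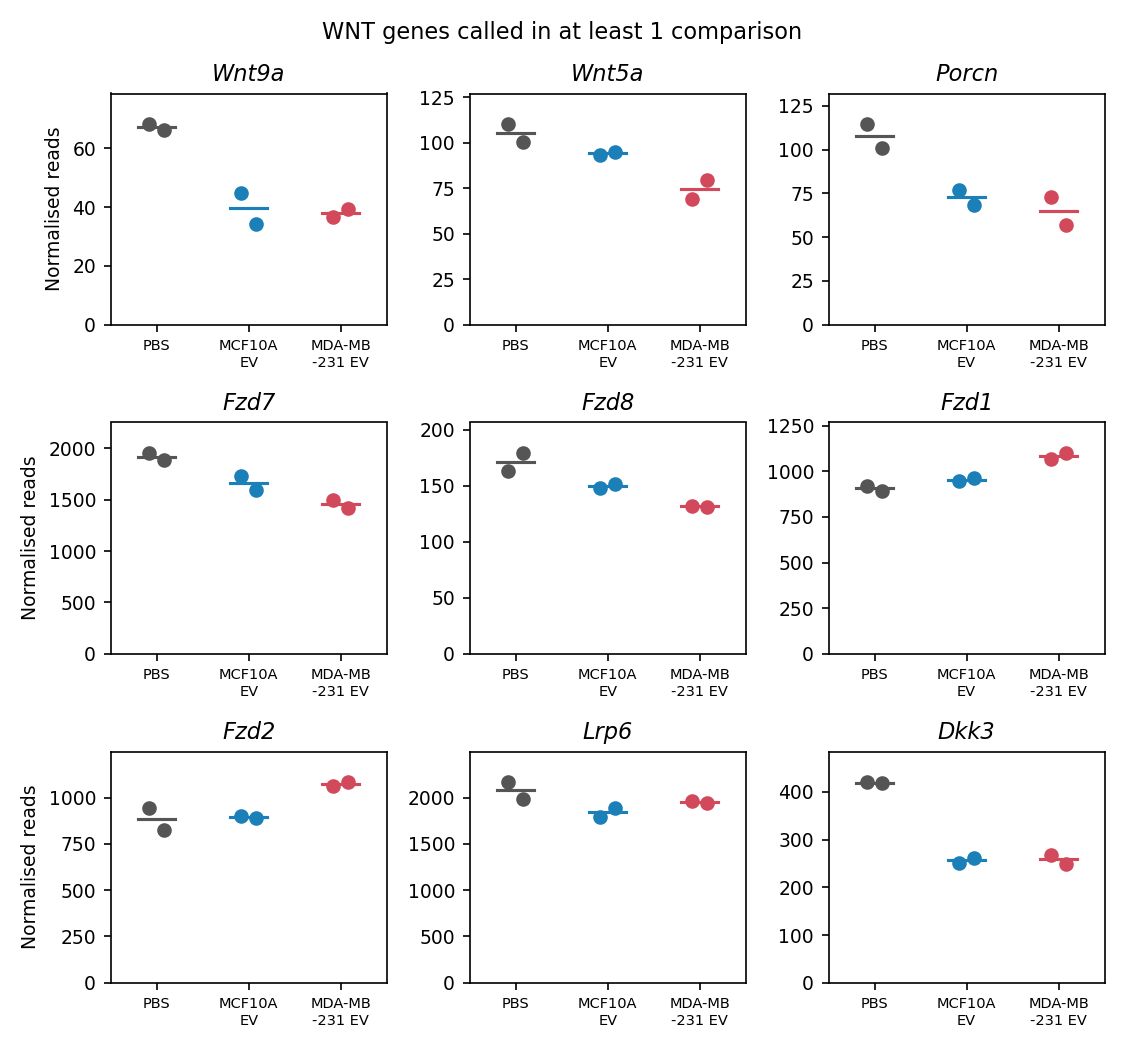
Normalised reads of the 9 WNT genes called in at least 1 comparison, 1 panel per gene with an axis from 0, 1 point per library and a line at each group mean. PBS points lie above both EV groups for Wnt9a, Wnt5a, Porcn, Fzd7, Fzd8, Lrp6 and Dkk3. MDA-MB-231 EV points lie above both other groups for Fzd1 and Fzd2.

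Axin2, the usual transcriptional reporter of beta-catenin activity, was close to the detection limit. It lies on chromosome 11 and had 4 and 3 whole reads with PBS, 5 and 8 after MCF10A EVs and 10 and 7 after MDA-MB-231 EVs, or 4.32, 2.77, 5.41, 6.82, 10.1 and 7.51 normalised reads in that order. The 3 groups did not overlap, but PBS stood at about the floor of 3 reads. Axin2 counts as expressed only through 1 library, of the group where it was highest, so its difference is given as a description and supports nothing. The log2 difference with MDA-MB-231 EVs was 1.12 (SE 0.45), with an unadjusted 95% interval of 0.17 to 2.07, and it was not called (limma adjusted p = 0.0654). It was called with a pseudocount of 5 (log2 0.69, adjusted p = 0.0366), in limma without a trend (0.0474) and with quantile scaling (log2 1.29, 0.0342). The filter of edgeR left Axin2 out for its low count, and DESeq2 gave it no adjusted p. With MCF10A EVs the log2 difference was 0.66 (adjusted p = 0.299).

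Rspo3 and Lgr4, a ligand and receptor that strengthen Wnt signals, were not called in any comparison. Lgr4, on chromosome 2, had 1193 and 1201 normalised reads with PBS, 1149.5 and 1133 after MCF10A EVs and 1113 and 1159 after MDA-MB-231 EVs. Both PBS libraries lay above the others, by a log2 difference of -0.08 with MDA-MB-231 EVs (limma adjusted p = 0.229) and -0.07 with MCF10A EVs (0.286). Rspo3, on chromosome 10, ranged from 36.0 to 61.9 normalised reads, with the PBS libraries at 46.7 and 47.7 inside that range. By the mouse annotation, exons on the other strand cover 207 of the 4260 exon bases of Axin2, 404 of 3085 of Rspo3, 1233 of 6915 of Fzd5 and 152 of 4382 of Fzd6. Whether reads were counted by strand is not given in the sources used here, so reads of these 4 genes and of their antisense partners cannot be told apart.

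The promoters of 3 of these genes are shown because Fzd7 and Wnt9a were called lower with both EVs and Axin2 is the pathway's own target. Porcn and Dkk3 were also called lower with both EVs, but no RefSeq window was at hand for them. Each line gives the 250 bases before the start of the gene, 5′ to 3′ on the plus strand, from RefSeq on the build GRCm38.p6. Capitals mark a match to a TCF and LEF word, CTTTG followed by 2 letters that are each A or T, on either strand.
Fzd7, chr1:59481897-59482146: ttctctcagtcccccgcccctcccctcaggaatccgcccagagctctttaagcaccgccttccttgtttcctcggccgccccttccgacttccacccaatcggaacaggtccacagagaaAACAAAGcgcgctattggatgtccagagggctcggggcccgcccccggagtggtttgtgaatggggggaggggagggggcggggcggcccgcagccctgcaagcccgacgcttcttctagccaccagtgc
Wnt9a, chr11:59306680-59306929: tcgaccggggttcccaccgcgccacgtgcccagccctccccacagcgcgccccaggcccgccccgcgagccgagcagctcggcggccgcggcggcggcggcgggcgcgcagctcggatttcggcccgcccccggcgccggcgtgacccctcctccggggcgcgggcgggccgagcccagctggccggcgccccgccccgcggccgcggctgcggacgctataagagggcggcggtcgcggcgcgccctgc
Axin2, chr11:108920099-108920348: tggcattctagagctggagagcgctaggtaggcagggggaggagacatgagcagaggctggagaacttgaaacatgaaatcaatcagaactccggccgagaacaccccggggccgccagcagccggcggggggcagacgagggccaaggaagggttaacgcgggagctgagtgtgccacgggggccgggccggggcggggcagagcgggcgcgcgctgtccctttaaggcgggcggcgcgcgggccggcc
The window of Fzd7 holds 1 such word, read on the minus strand, and those of Wnt9a and Axin2 hold 0. The G and C share was 65.2% for Fzd7, 84.4% for Wnt9a and 69.2% for Axin2. RefSeq windows were at hand for 29 of the 45 genes, 32 windows in all, and 4 of these (12.5%) held a word, in Fzd7, Dkk1, Wnt11 and Wnt5b, beside 4874 of 32851 windows of all genes (14.8%). The 4 words of this kind share their first 5 letters, and a match describes letters only.

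The 2 EVs differed in 3 of the 22 expressed genes, 13.6%, where 16.9% of all tested genes were called, 6.84% higher and 10.1% lower with MDA-MB-231 EVs than with MCF10A EVs. All 3 are Frizzled receptors. Fzd7 was lower with MDA-MB-231 EVs, by 0.19 on the log2 scale or 1.14-fold (limma adjusted p = 0.0138). Fzd2 was higher by 0.26, 1.20-fold (limma adjusted p = 0.00686), and Fzd1 was higher by 0.18, 1.14-fold (limma adjusted p = 0.0173). The median log2 difference of the 22 genes was 0.003, beside -0.001 over all tested genes.

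None of these 3 calls was kept throughout. The count was 0 in limma without a trend, where 6 genes had an unadjusted p under 0.05, 1 in DESeq2 and 4 in edgeR. Leaving out MCF10A EV replicate 1 or either library of MDA-MB-231 EVs gave 0, while 5, 4 and 4 genes had an unadjusted p under 0.05, and leaving out MCF10A EV replicate 2 gave 1. Fzd7 was lost without MCF10A EV replicate 1 (log2 -0.13, adjusted p = 0.213), MDA-MB-231 EV replicate 1 (log2 -0.23, 0.0954), MDA-MB-231 EV replicate 2 (log2 -0.15, 0.249), PBS replicate 1 (0.0647) or PBS replicate 2 (0.0642), in DESeq2 (0.0615) and in a fit of the 2 EV groups alone (0.0654). Without any 1 of the 4 EV libraries Fzd2 had an adjusted p of 0.0893 to 0.184 and Fzd1 of 0.0689 to 0.146.

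Dkk3, Wnt9a and Porcn, which fell with both EVs, were not called between them. The log2 difference between MDA-MB-231 and MCF10A EVs was 0.01 for Dkk3 (95% interval -0.17 to 0.20), -0.05 for Wnt9a (-0.52 to 0.42) and -0.17 for Porcn (-0.56 to 0.22). For Wnt5a it was -0.34 (limma adjusted p = 0.184), for Fzd8 -0.19 (0.36), for Lrp6 0.08 (0.256) and for Fzd5 -0.25 (0.0598). Fzd5 passed with a filter of 10 normalised reads in 2 libraries (adjusted p = 0.0413) and in edgeR (0.0458), and Lrp6 passed in edgeR with library totals (0.0422).

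Counted by libraries that did not overlap, 4 of the 22 genes lay above and 9 below PBS with MDA-MB-231 EVs, or 59.1%, beside 65.9% of all tested genes. With MCF10A EVs 3 lay above and 9 below, 54.5% beside 64.2%. Between the 2 EVs 7 lay above and 5 below, 54.5% beside 56.0%. Axin2 is among the genes above in each comparison, and it counts as expressed only through an MDA-MB-231 EV library. Fzd3 is among those above PBS with MCF10A EVs, and its PBS libraries, at 8.67 and 7.45 normalised reads, lay under the threshold. The counts above thus depend in part on how expressed genes were chosen, and nothing is read from them.

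Most Wnt ligands lay below the threshold in these cells. Of 19 ligands 15 never reached 10 normalised reads, and Wnt2, Wnt6, Wnt7b, Wnt8b, Wnt9b, Wnt10a and Wnt11 had 0 reads in all 6 libraries, as did Fzd10 and Wif1. The other 14 genes below the threshold had a few reads. They were Wnt1, Wnt3, Wnt3a, Wnt5b, Wnt7a, Wnt8a, Wnt10b, Wnt16, Fzd9, Dkk1, Dkk4, Sfrp2, Sfrp4 and Sfrp5. Wnt10b came nearest to the threshold, with 1 and 3 whole reads with PBS, 4 and 9 after MCF10A EVs and 4 and 4 after MDA-MB-231 EVs, and its highest value was 7.74 normalised reads. Sfrp2 reached 7.39 and Fzd9 reached 7.10 normalised reads. Just inside the threshold were Axin2 with a highest value of 10.1, Fzd3 and Frzb with 11.9 and Wnt4 with 12.9. All 22 expressed genes and 8 of the 23 others passed the filter of the test. Of those 8, limma called 0 in each comparison. At an unadjusted p under 0.05 there were 0 with MDA-MB-231 EVs against PBS, 1 with MCF10A EVs against PBS and 1 between the EVs. The filter of edgeR kept 0 of the 8, and DESeq2 gave an adjusted p to 0 of them.

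The rest of the pathway was read from 4 lists that share no gene with those above once 2 target genes were left out of the fourth; Nkd1 stands in 2 of them. Among 30 expressed genes of intracellular signal transduction, 6 rose and 7 fell with MDA-MB-231 EVs and 2 rose and 12 fell with MCF10A EVs, with median log2 changes of -0.002 and -0.08. In all, 43.3% and 46.7% of the list were called, beside 34.8% and 31.7% of all tested genes. Each of the 4 lists was counted at 10 or more normalised reads, a higher threshold than for all tested genes. No excess is therefore read from these shares. In edgeR with TMM 16 of the 30 were called with MDA-MB-231 EVs and 15 with MCF10A EVs, beside 5554 and 5160 of 12352 genes. The balance differed between settings. With MDA-MB-231 EVs edgeR with library totals called 10 higher and 4 lower, and DESeq2 called 1 and 5. With MCF10A EVs library totals gave 4 higher and 10 lower. The co-repressor Tle4 fell from 763 ± 7.82 normalised reads with PBS to 625 ± 18.9 with MCF10A EVs (log2 -0.29, limma adjusted p = 0.00176) and 518 ± 15.2 with MDA-MB-231 EVs (log2 -0.56, 3.09e-06). Gsk3b, the kinase that marks beta-catenin for destruction, fell from 5313 ± 43.4 to 4605 ± 92.7 and 4615 ± 29.4, and the co-repressor Tle3 fell from 1913 ± 61.6 to 1618 ± 14.1 and 1677 ± 4. Apc, a scaffold of the destruction complex, rose from 2774 ± 26.0 to 3117 ± 29.9 with MCF10A EVs (log2 0.17, limma adjusted p = 0.00107) and 3005 ± 1.38 with MDA-MB-231 EVs (log2 0.12, 0.0119). Bcl9l, a beta-catenin co-activator, fell with MCF10A EVs from 3419 ± 111 to 2947 ± 79.4 (limma adjusted p = 0.000282). With MDA-MB-231 EVs it stood at 3545 ± 29.1 and was not called by limma (log2 0.05, adjusted p = 0.29). Library totals in edgeR called it higher there (log2 0.12, adjusted p = 0.00656). The Apc call with MDA-MB-231 EVs was lost without PBS replicate 1 (log2 0.106) or either MDA-MB-231 EV library (log2 0.116 and 0.115). It was also lost in DESeq2 (adjusted p = 0.0907) and in limma without a trend (0.078). The MCF10A EV call of Bcl9l was lost in limma without a trend too (adjusted p = 0.0511). Without any 1 of the 4 libraries compared, the list's calls numbered 4 to 6 with MDA-MB-231 EVs and 7 to 9 with MCF10A EVs.

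Of 15 expressed genes for Wnt secretion, the R-spondin axis and other regulators, 3 rose and 5 fell with MDA-MB-231 EVs and 4 fell with MCF10A EVs, with medians of 0.007 and -0.17. The calls are 53.3% and 26.7% of the list, beside 34.8% and 31.7% of all tested genes, and with library totals in edgeR 5 rose and 5 fell with MDA-MB-231 EVs. With MCF10A EVs limma called 0 higher, 0 were higher at an unadjusted p under 0.05, and edgeR and DESeq2 called 0. Kremen1, a Dkk receptor, fell from 2393 ± 55.0 normalised reads to 2064 ± 4.38 with MCF10A EVs and 1950.0 ± 51.7 with MDA-MB-231 EVs (limma adjusted p = 0.000517 and 1.82e-05). Nkd2, a Dishevelled-binding brake, fell from 2228 ± 142 to 1999 ± 14.7 (limma adjusted p = 0.0146) and 1781 ± 34.4 (3.61e-05). Cthrc1, a secreted protein linked to planar polarity signals, fell with MDA-MB-231 EVs from 209 ± 2.29 to 109 ± 20.2, by 0.95 on the log2 scale (limma adjusted p = 6.85e-05), and stood at 177 ± 11.8 with MCF10A EVs. Reck, a membrane protein that helps Wnt7 ligands signal, fell with MCF10A EVs from 561 ± 46.9 to 448 ± 11.8 (limma adjusted p = 0.00359), and the glypican Gpc4 fell from 1123 ± 23.6 to 968 ± 154 (0.0388) and 905 ± 12.5 (0.00518). The Gpc4 call with MDA-MB-231 EVs (log2 -0.31) was lost without any 1 of its 4 libraries (adjusted p 0.0883 to 0.167) and in limma without a trend (0.151). The Gpc4 call with MCF10A EVs (log2 -0.22) rested on MCF10A EV replicate 1, without which the log2 change was -0.06 (0.495). It was also lost without either PBS library (0.205 and 0.293) or MDA-MB-231 EV library (0.185), in DESeq2 (0.0605), with quantile scaling (0.0507), in limma without a trend (0.28) and in a fit of the 2 groups alone (0.185). The MCF10A EV call of Nkd2 (log2 -0.15) was lost without any 1 library other than PBS replicate 2 (0.0691 to 0.204), at a log2 change of -0.09 without PBS replicate 1, in limma without a trend (0.154) and in a fit of the 2 groups alone (0.0683). For Reck, leaving out PBS replicate 2 (0.0783) or the first MCF10A EV library (0.0544) ended the call, as did limma without a trend (0.0624). Without any 1 of the 4 libraries compared, the list's calls numbered 4 to 5 with MDA-MB-231 EVs and, without any 1 of the 6 libraries, 1 to 3 with MCF10A EVs. Rspo1, Sost, Sostdc1, Nkd1 and Gpc3 had 0 reads.

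Of 21 expressed genes for alternative receptors and planar polarity, 2 rose and 5 fell with MDA-MB-231 EVs and 1 rose and 5 fell with MCF10A EVs, with medians of -0.02 and -0.11. The calls are 33.3% and 28.6% of the list, beside 34.8% and 31.7% of all tested genes. With MDA-MB-231 EVs edgeR with library totals called 4 higher and 4 lower, and with MCF10A EVs DESeq2 called 0 higher and 5 lower. The members named are calcium-regulated NFAT factors and the Dishevelled-binding formins Daam1 and Daam2. Nfatc1 fell from 1747 ± 19.2 normalised reads to 1352 ± 10.9 with MCF10A EVs and 1077 ± 24.5 with MDA-MB-231 EVs, by 0.37 and 0.70 on the log2 scale (limma adjusted p = 1.08e-05 and 8.69e-09). Nfatc2 fell from 83.9 ± 1.10 to 44.7 ± 8.14 and 23.9 ± 4.97, by 0.91 and 1.78 (limma adjusted p = 0.00805 and 2.34e-05). Daam1 fell from 1315 ± 20.9 to 1158 ± 9.27 and 998 ± 23.3 (limma adjusted p = 0.00603 and 5.64e-06). Nfatc4 fell from 1468 ± 35.0 to 1203 ± 18.9 (limma adjusted p = 0.000122) and 1351 ± 16.3 (0.0442), and Daam2 fell with MCF10A EVs from 219 ± 8.67 to 136 ± 15.0 (0.000557) and stood at 187 ± 14.0 with MDA-MB-231 EVs. The Nfatc4 call with MDA-MB-231 EVs (log2 -0.12) was lost without any 1 of the 6 libraries (adjusted p 0.0563 to 0.213), with the replicate number as a block (0.0523), in a fit of the 2 groups alone (0.0541), in limma without a trend (0.103), in DESeq2 (0.177) and in edgeR with library totals (log2 -0.05, 0.357). The MCF10A EV call of Nfatc2 was lost without PBS replicate 1 (0.0875), PBS replicate 2 (0.0807) or MCF10A EV replicate 1 (0.0983), and that of Daam1 without PBS replicate 1 (0.0665) or MCF10A EV replicate 2 (0.0524), and both in limma without a trend (0.0566 and 0.051). Without 1 library in turn the list's calls numbered 4 to 6, fewest without the second PBS library or the first MDA-MB-231 EV library, and 3 to 5, fewest without PBS replicate 1.

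Of 13 expressed beta-catenin target genes outside the 45, 5 rose and 4 fell with MDA-MB-231 EVs and 2 rose and 3 fell with MCF10A EVs, with medians of 0.13 and 0.05. The calls are 69.2% and 38.5% of the list, beside 34.8% and 31.7% of all tested genes. With library totals in edgeR 6 rose and 3 fell with MDA-MB-231 EVs and 4 rose and 3 fell with MCF10A EVs, where edgeR with TMM called 3 each way. Ccnd1, which codes for cyclin D1, rose from 5536 ± 52.4 normalised reads to 6774 ± 188 with MCF10A EVs and 7166 ± 446 with MDA-MB-231 EVs, by 0.29 and 0.37 on the log2 scale (limma adjusted p = 3.46e-05 and 1.85e-06). Wisp2, a matricellular protein gene, rose from 217 ± 5.99 to 341 ± 1.33 and 361 ± 26.3, by 0.65 and 0.73 (limma adjusted p = 5.9e-05 and 1.18e-05). Fosl1, an AP-1 subunit, fell from 11484 ± 346 to 9391 ± 106 and 6770.4 ± 443, by 0.29 and 0.76 (limma adjusted p = 3.74e-05 and 9.66e-10). Cd44, the hyaluronan receptor, stood at 13158 ± 85.2 with PBS and 13038 ± 325 with MCF10A EVs and fell to 10019 ± 139 with MDA-MB-231 EVs, by 0.39 (limma adjusted p = 4.49e-08). The factor Twist1 fell from 1217 ± 13.5 to 1048 ± 21.0 and 925 ± 37.2 (limma adjusted p = 0.00319 and 1.23e-05), and its MCF10A EV call was lost without PBS replicate 2 (0.0524) and in limma without a trend (0.0533), as was that of Fosl1 (0.0536). Many of these targets also answer to other pathways, and Nkd1, Sp5 and Tnfrsf19 had 0 reads. Without 1 library in turn the list's calls numbered 6 to 9 and 3 to 5, the lowest of the latter without PBS replicate 2.

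**Figure D5:**
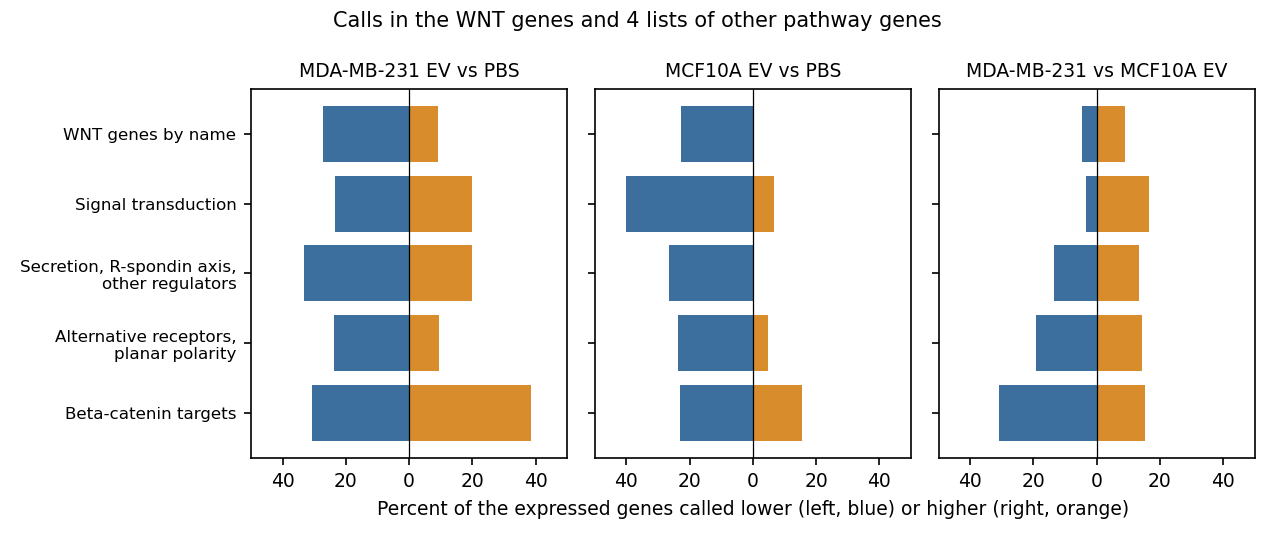
Percent of expressed genes called lower (blue, left of 0) or higher (orange, right of 0) in the 22 WNT genes and in 4 lists of other pathway genes, 1 panel per comparison. In these limma calls the MCF10A EV panel has longer blue than orange bars, by 3 genes against 2 for the beta-catenin targets, a balance that edgeR with TMM (3 and 3) and with library totals (3 and 4) does not keep.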

How the data were processed

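RNA-seq was run on 6 NIH3T3 libraries in 3 groups of 2, made by TRIzol extraction and a stranded mRNA kit per the labels. Per the submitters' processing notes TopHat2, edgeR and the build hg19 were used. Since the table lists mouse genes with mouse chromosomes, its build is unknown, and a gene's place is given as its chromosome alone. For counter, annotation, strand setting and versions, the sources used here give nothing. The authors deposited 1 table of normalised signal, which holds edgeR quantile-adjusted pseudo-counts, called normalised reads here. Inverting that adjustment gave whole reads for 122850 of 122850 values (100.0%) within a relative 1e-06, with a common dispersion of 0.000591.

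The planned tests covered counts or normalised values, not pseudo-counts, so the one for normalised values was applied. Genes entered where 2 or more libraries held 1 or more normalised reads, which left 15025. On log2(value + 1), limma 3.58.1 in R 4.3.3 (lmFit, eBayes with trend) was fitted to all 6 libraries at once, with 3 residual degrees of freedom. Benjamini-Hochberg adjustment ran over all tested genes, and a gene was called at an adjusted p under 0.05. Log2 and fold changes are on that scale, which understates changes of low genes. The recovered reads were tested with edgeR 4.0.16 (quasi-likelihood) and DESeq2 1.42.0 as alternatives, among 17 that also cover pseudocount, filter, scaling, groups, a replicate block and each library left out. Scripts were tested on simulated data.

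The WNT genes and the 8 gene lists were chosen with earlier results of these data known. Every expressed WNT gene is named. From each of 4 pathway lists up to 5 expressed genes are named, those with the smallest p in either EV against PBS comparison among genes called there. Levels per kilobase use the union of exons of the GENCODE mouse annotation by symbol, and promoters come from RefSeq.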

Additional observations from a re-analysis of the deposited data

How the results depend on the processing

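Of 16 called comparisons of single WNT genes, 4 were kept in all 17 alternatives: Dkk3 with both EVs, and Fzd7 and Fzd1 with MDA-MB-231 EVs against PBS. No called value changed sign, and of 50 uncalled comparisons 45 were called in no alternative and 23 changed sign in at least 1, so no direction is read from them. For MDA-MB-231 EVs against PBS the WNT genes called numbered 8, with 5 in DESeq2 and 4 to 8 when 1 library was left out. For MCF10A EVs against PBS they numbered 5, with 2 in limma without a trend, 3 in DESeq2 and 1 to 4 when 1 library was left out. For MDA-MB-231 against MCF10A EVs they numbered 3, with 0 in limma without a trend, 1 in DESeq2 and 0 to 2 when 1 library was left out. Fewer libraries, a test without the trend and DESeq2 also lowered the calls over all genes, which numbered 5231, 4764 and 2541 in the order above. Without the trend they numbered 3346, 2231 and 378, and in DESeq2 3724, 3260 and 1515. Leaving out any 1 library lowered the count over all genes in every comparison.

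In edgeR with TMM 51.1%, 51.2% and 45.2% of all calls were higher, and with library totals 68.0%, 61.0% and 63.2%. In limma these shares were 51.4%, 54.0% and 40.4%, and quantile scaling moved the third to 50.7%. WNT genes called higher and lower with library totals were 3 and 6, 0 and 5, and 3 and 1. Labels give the groups the same replicate numbers without saying what they share, and deviations of same-numbered libraries correlated at -0.01, 0.00 and 0.02 over 10309 genes. With the replicate block the WNT genes called numbered 8, 5 and 3, and 5187, 4746 and 2560 of all genes. In the 4 pathway lists, in the order of the report, limma without a trend gave 5, 4 and 4 calls in place of 13, 8 and 7 with MDA-MB-231 EVs in the first 3, and 4, 1, 3 and 2 in place of 14, 4, 6 and 5 with MCF10A EVs. DESeq2 gave 6 and 5 calls in place of 13 and 8 in the first 2 with MDA-MB-231 EVs, and a fit of PBS and MCF10A EVs alone gave 2 in place of 4 in the second. Depth limits Axin2, Wnt4, Frzb and Fzd3, which had between 3 and 14 whole reads in each library. Axin2 did not pass the filter of 10 normalised reads or that of edgeR, and DESeq2 gave it no adjusted p.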

Other observations

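Of the 45 genes, 4 pairs of Wnt ligands lie next to each other in the RefSeq gene order: Wnt6 with Wnt10a on chromosome 1, Wnt3a with Wnt9a and Wnt9b with Wnt3 on chromosome 11, and Wnt10b with Wnt1 on chromosome 15. Of these genes Wnt9a alone was expressed by the threshold of 10 normalised reads. Its neighbour Wnt3a had 1 read in 1 of the 6 libraries, while Wnt9a had 34.4 to 68.4 normalised reads. Wnt6, Wnt10a and Wnt9b had 0 reads in all 6 libraries.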
